A study of Mus musculus with 8 samples.

Results

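Collagens and laminins, the structural proteins of basement membranes and of the fibrous matrix, were followed in mouse embryo cells enriched for CD31. This surface protein (PECAM-1) marks endothelium and is also found on platelets and many leukocytes. The members were all collagen alpha chain and laminin chain genes named on the array by a symbol of the form Col1a1 or Lama1, which gave 54 genes (43 collagens and 11 laminins, on 81 probes) of 24165 gene names. For each gene the brightest probe was used, and 53 of the 54 genes were well above background on 4 or more of 8 arrays. Col6a5, a collagen VI chain with 2 dim probes, was the gene that was not.

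RNA was measured on one-colour Agilent arrays from 8 mouse embryos (E12.5, on the C57Bl/6J strain), with 1 array per embryo. The 4 mutants (labelled Gata2+9.5-/-) are homozygous for a mutation of the +9.5 enhancer of Gata2, a transcription factor gene needed for blood stem cells, and the other 4 were wild type littermates. The mutation is inherited through the germ line from heterozygous parents, so that in the mutants it is not restricted to the cells studied. Liver and brain were removed, the remaining embryo was dissociated with collagenase, and CD31-bearing cells were captured on magnetic beads, a step that enriches such cells but is not a sort. Litter 1 gave wild type 1 and 2 and mutant 1 and 2, and litter 2 gave wild type 3 and 4 and mutant 3 and 4. All arrays of a litter lay on 1 slide with a scan of its own, so that litter, slide and scan cannot be told apart. Values are log2 signals relative to the 75th percentile of the same array, so that 0 is the 75th percentile and 1 unit is a doubling, and they are comparable between arrays for a gene but not between genes.

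Each collagen molecule is a rope of alpha chains wound around each other. Collagen IV chains are joined into the sheet-like network of basement membranes, which lie under endothelium and epithelium and around muscle, and laminins, built from an alpha, a beta and a gamma chain, form the second network there. Fibrillar collagens (types I, II, III, V, XI, XXIV and XXVII) form the cables of connective tissue, bone and cartilage, with types II, IX and XI being the collagens of cartilage. Endothelial cells are known to make collagen IV, collagen XVIII and the laminins with alpha 4 and alpha 5 chains, whereas types I and III are known as products of fibroblasts and other mesenchymal cells.

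Several members lie side by side in the genome, and in the RefSeq gene table (GRCm38.p6) the gene spans of 2 collagen IV pairs overlap, Col4a1 with Col4a2 by 85 bases and Col4a3 with Col4a4 by 114 bases. Col4a1 and Col4a2, the chains of the common collagen IV molecule, are transcribed away from each other on chromosome 8. Their promoter windows (250 bases before to 50 after the start, RefSeq, GRCm38.p6) cover chr8:11312777-11313076 on the minus strand and chr8:11312555-11312854 on the plus strand and overlap by 78 bases. The windows are shown because this is the only overlap between the windows found for members (none was found for Col4a3), with the shared bases in capitals, each read on its own gene's strand. The window of Col1a2 (chr6:4505368-4505667, plus strand), a chain of the main fibrillar collagen, stands beside them as a promoter of the other class, with its CCAAT boxes in capitals (ATTGG is the same box on the opposite strand). CCAAT is not particular to it. The box also stands, unmarked, in the windows of Col4a1 (at -145 from the start, opposite strand) and Col4a2 (at -32, own strand).
Col4a1: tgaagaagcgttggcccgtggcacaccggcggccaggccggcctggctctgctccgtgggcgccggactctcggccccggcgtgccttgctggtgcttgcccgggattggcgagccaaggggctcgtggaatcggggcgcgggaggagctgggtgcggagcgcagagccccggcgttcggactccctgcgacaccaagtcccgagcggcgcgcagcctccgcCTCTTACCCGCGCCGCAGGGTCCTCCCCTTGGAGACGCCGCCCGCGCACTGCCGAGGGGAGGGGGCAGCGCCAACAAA
Col4a2: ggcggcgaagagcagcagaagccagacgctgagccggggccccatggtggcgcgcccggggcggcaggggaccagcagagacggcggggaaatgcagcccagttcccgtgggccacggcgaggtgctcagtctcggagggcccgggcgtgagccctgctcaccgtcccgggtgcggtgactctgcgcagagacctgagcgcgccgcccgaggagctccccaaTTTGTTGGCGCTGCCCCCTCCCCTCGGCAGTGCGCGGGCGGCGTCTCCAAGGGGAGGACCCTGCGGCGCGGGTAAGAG
Col1a2: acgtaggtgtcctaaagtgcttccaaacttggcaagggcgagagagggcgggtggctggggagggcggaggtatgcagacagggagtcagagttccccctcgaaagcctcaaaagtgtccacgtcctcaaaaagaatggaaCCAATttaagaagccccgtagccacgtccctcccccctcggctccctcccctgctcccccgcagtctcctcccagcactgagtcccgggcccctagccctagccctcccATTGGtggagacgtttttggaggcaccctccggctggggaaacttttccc

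Windows were found for 40 of the 54 members (44 windows). Over both strands, CCAAT stood in 14 of these 44 windows, against 37.4% of all 32851 windows of this length, and TATAAA in 5, against 13.6%. GGGCGG, the letters of a GC box, stood in 26 of 44 windows, against 35.7% of all windows, and the median GC content was 59.5% in basement membrane members (14 windows of 12 genes) and 61.33% in fibrillar members (8 windows of 8 genes), against 52.67% over all windows. These matches describe the letters of the windows and no binding.

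Gata2, the gene whose enhancer was mutated, lay between 0.89 and 1.997 in wild type and between -1.27 and -0.15 in mutant embryos, without overlap (limma, adjusted p = 0.0858). The share of spots well above background ran from 74.95% to 92.05% and the 75th percentile of the signal from 996 to 2481. Along the first principal component, which held 58.85% of the variance, 3 arrays (wild type 2, wild type 3 and mutant 4) lay apart from the other 5 arrays. Of the 28 members with a mean above the 75th percentile, 26 were lowest on one of these 3 arrays, as were 91.5% of all features that bright. In bulk samples of this kind, fewer cells of a type and less RNA per cell cannot be told apart. Each embryo gave 1 sample, and the number of arrays limits the precision of every value.

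The first comparison asked whether the matrix genes differed between mutant and wild type embryos. No member passed the threshold (limma, Benjamini-Hochberg adjusted p under 0.05 over 40226 features), where the share of all features called was 0.0447% (18 features, 0 of them higher). Of the 53 measured members, 31 were higher and 22 lower in mutants, where 52.4% of all features were higher, with a median difference of 0.17, against 0.05 over all features. Without the 3 arrays that stand apart 12 of 53 were higher, where 40.2% of all features were, with medians of -0.28 and -0.12. That subset holds wild type 1 and mutant 1 and 2 of litter 1, and wild type 4 and mutant 3 of litter 2. Its genotypes are thus unbalanced for litter, and the genotype fit has no litter term. Genotype and litter are therefore partly mixed in every genotype value given without these 3 arrays. With all arrays, 3 members stood out at an unadjusted p under 0.05 (limma), Lama1 as higher and Col28a1 and Col17a1 as lower. These were 3 of 53, against 3.05% of all features (0.38% higher, 2.67% lower). The mutant and wild type values of 2 members did not overlap, Lama1 and Col23a1, both higher, where 1.04% of all features did not overlap and 0.505% were higher without overlap. The lowest adjusted p of any member was 0.717.

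Col4a1 encodes the alpha 1 chain of collagen IV and was measured by a probe at chr8:11199009-11199068 (mm9, minus strand). Its values were 6.59, 5.55, 5.34 and 6.34 in wild type 1 to 4 and 6.56, 6.49, 6.60 and 5.66 in mutant 1 to 4. On 5 arrays Col4a1 lay between 6.34 and 6.60, while wild type 2 and 3 and mutant 4 were low, and the genotypes overlapped. Col4a1 was at 5.96 ± 0.61 (SD, n = 4) in the wild type embryos and 6.33 ± 0.45 (SD, n = 4) in the mutants, a difference of 0.37 ± 0.40 (SE) (limma, adjusted p = 0.717; exact two-sided permutation p = 0.229, where 0.0286 is the smallest that 70 arrangements allow). Within litters the difference was 0.46 and 0.29, and under quantile normalization its sign turned (-0.04).

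Col4a2, the partner chain (probe at chr8:11448840-11448899), followed Col4a1 closely. Its values were 6.40, 5.45, 5.19 and 6.12 in wild type 1 to 4 and 6.38, 6.34, 6.20 and 5.32 in mutant 1 to 4. The order of arrays was again one of high values on 5 arrays and lower ones on the arrays that stand apart, with overlapping genotypes and a difference of 0.27 ± 0.40 (SE) (limma, adjusted p = 0.751). The difference Col4a1 minus Col4a2 had an SD of 0.10 over the 8 arrays, whereas the genes alone had SDs of 0.53 and 0.51. The other collagen IV chains were more restricted types known from kidney and other specialised basement membranes. Col4a3 had 4 of 8 arrays well above background (3 wild type, 1 mutant) and the lowest mutant minus wild type difference of all members, -1.58 ± 0.77 (SE) (limma, adjusted p = 0.717), with overlapping values from -7.14 to -2.97. Its values were -4.69, -4.15, -2.97 and -4.65 in wild type 1 to 4 and -7.14, -5.02, -7.11 and -3.53 in mutant 1 to 4, with mutant 4 above 3 of the wild type arrays. With normexp background correction the difference of Col4a3 was -0.36 and no longer the lowest, that of Col28a1 being -0.79. Col4a4, Col4a5 and Col4a6 differed by -0.41, 0.14 and -0.32 between genotypes.

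The multiplexins Col15a1 and Col18a1 carry heparan or chondroitin sulfate chains and sit at basement membranes, Col18a1 being the source of the fragment endostatin. Col18a1 (probe at chr10:76514926-76514985) was at 6.10 ± 0.71 (SD, n = 4) in the wild type embryos and 6.35 ± 0.75 (SD, n = 4) in the mutants, a difference of 0.24 ± 0.48 (SE), and Col15a1 differed by 0.22 ± 0.36 (SE) (limma, adjusted p = 0.801 and 0.773). Both differences were smaller than the spread between embryos of a genotype, and that of Col18a1 turned to -0.16 under quantile normalization.

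Laminins leaned to the mutant side without a call. Of the 11 laminin genes 9 were higher in mutants (median 0.31), where 52.4% of all features were. Without the 3 arrays that stand apart 5 of the 11 were higher, where 40.2% of all features were. Basement membrane partners and collagen folding genes leaned the same way with all arrays, as given below, while receptors did not. Lama1, the alpha 1 chain of the earliest embryonic laminins, had the highest mutant minus wild type difference of all members (probe at chr17:68171924-68171983). Its values were 2.74, 2.49, 2.38 and 2.95 in wild type 1 to 4 and 3.65, 3.52, 3.68 and 3.37 in mutant 1 to 4. Every mutant array lay above every wild type array, in both litters, with mutant minus wild type of 0.97 in litter 1 and 0.86 in litter 2. The difference was 0.92 ± 0.31 (SE), or 1.89-fold, with an unadjusted p of 0.0125 and an adjusted p of 0.717 (limma), so that it did not pass the threshold. It kept its direction under the alternatives run, with differences from 0.54 to 1.18. Because the genotypes did not overlap, leaving arrays out could not turn the sign, and blocks leave the difference unchanged in this balanced design.

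Lama4, the alpha 4 chain known from vessel walls, differed by 0.32 ± 0.40 (SE) and ran from 3.79 to 5.06 over the arrays. Its values were 5.06, 4.05, 3.79 and 4.87 in wild type 1 to 4 and 4.96, 5.04, 4.95 and 4.08 in mutant 1 to 4, so that the 3 arrays that stand apart were lowest and the other 5 lay between 4.87 and 5.06. Its usual partners are the beta 1 chain Lamb1, with a difference of 0.51 ± 0.45 (SE), and the gamma 1 chain Lamc1, with 0.58 ± 0.49 (SE) (limma, adjusted p = 0.717 and 0.717). Lamb1 minus Lamc1 had an SD of 0.13 over the arrays, against 0.67 for Lamb1 and 0.77 for Lamc1 alone. Lamb1 and Lamc1 thus varied together across embryos, but not all partner chains were as close. Lama4 minus Lamc1 had an SD of 0.41 and Lama1 minus Lamc1 0.65, against 0.53 and 0.52 for Lama4 and Lama1 alone. Col11a1 minus Col11a2 had 0.49 (0.82 and 1.01 alone) and Col5a1 minus Col5a2 0.42 (0.61 and 0.41 alone). No baseline over pairs of other features was taken. Lama2, Lama3 and Lama5, the alpha chains known from muscle, epithelium and vessels or epithelium, were higher by 0.23, 0.31 and 0.30 in the mutant means, with no call. Lamb2, found at nerve and muscle contacts, and Lamb3, of skin, differed by -0.00 and -0.12. Lamb2 had values of 2.57, 1.96, 2.31 and 3.04 in wild type 1 to 4 and 2.33, 2.25, 2.97 and 2.34 in mutant 1 to 4, highest in wild type 4 and mutant 3. Lamc3 differed by 0.08.

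Among fibrillar collagens 8 of 11 were higher in mutants (median 0.17), and 1 of 11 without the 3 arrays that stand apart. That subset is unbalanced for litter, and these genes had a median litter difference of 0.92. Genotype and litter thus cannot be told apart in its counts and signs. Col1a2, a chain of collagen I (probe at chr6:4490619-4490678, plus strand), had values of 6.74, 5.81, 6.67 and 7.67 in wild type 1 to 4 and 6.27, 6.63, 7.72 and 6.94 in mutant 1 to 4. Its highest values were those of wild type 4 and mutant 3, both of litter 2, and the genotypes overlapped. It was at 6.72 ± 0.76 (SD, n = 4) in the wild type embryos and 6.89 ± 0.61 (SD, n = 4) in the mutants, a difference of 0.17 ± 0.46 (SE) (limma, adjusted p = 0.858; exact two-sided permutation p = 0.743), with the sign turned without the 3 arrays (-0.33) and under quantile normalization (-0.26). Its difference was 0.18 in litter 1 and 0.16 in litter 2. Col3a1, the collagen of loose and vascular connective tissue (probe at chr1:45405589-45405648), had values of 5.09, 4.03, 4.63 and 5.74 in wild type 1 to 4 and 4.73, 5.22, 5.87 and 5.31 in mutant 1 to 4. The genotypes overlapped here too, with wild type 2 lowest and mutant 3 highest. Col3a1 was at 4.87 ± 0.72 (SD, n = 4) in the wild type embryos and 5.28 ± 0.47 (SD, n = 4) in the mutants, a difference of 0.41 ± 0.43 (SE) (limma, adjusted p = 0.717; exact two-sided permutation p = 0.343), and -0.14 without the 3 arrays. Of the other fibrillar genes, Col5a2 had the highest difference, 0.54, and Col11a2 the lowest, -0.79, with no call.

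After Col4a3, the lowest mutant minus wild type differences were those of Col28a1, Col10a1, Col14a1 and Col17a1. Col28a1, a collagen known from the peripheral nerve (probe at chr6:7947808-7947867), differed by -1.55 ± 0.56 (SE), with values of -3.25, -1.97, -2.28 and -1.85 in wild type 1 to 4 and -4.28, -5.25, -3.36 and -2.65 in mutant 1 to 4. The mutants were low and 3 of the 4 were well above background, but mutant 4 lay above wild type 1 (limma, unadjusted p = 0.0186, adjusted p = 0.717). Col10a1, of hypertrophic cartilage, differed by -1.0 ± 0.52 (SE), and Col17a1, of the skin's hemidesmosomes, by -0.92 ± 0.39 (SE) (limma, adjusted p = 0.717). The values of Col10a1 were -3.76, -1.92, -1.89 and -2.09 in wild type 1 to 4 and -3.26, -3.65, -4.27 and -2.47 in mutant 1 to 4, overlapping through wild type 1 alone. Col14a1, a FACIT collagen of fibrils, differed by -0.97 ± 0.51 (SE) (limma, adjusted p = 0.717), with overlapping genotypes. A second probe of Col14a1, well above background on all 8 arrays, went the other way, with a difference of 0.35. Col23a1, a transmembrane collagen, was higher in each mutant than in each wild type embryo, at 0.66 ± 0.26 (SD, n = 4) in the wild type embryos and 1.14 ± 0.12 (SD, n = 4) in the mutants (limma, adjusted p = 0.717), but its 3 probes gave differences from -0.53 to 0.66. The brightest of them read 0.87, 0.51, 0.37 and 0.89 in wild type 1 to 4 and 1.13, 1.02, 1.31 and 1.10 in mutant 1 to 4. Col12a1, which coats fibrils, had the second highest difference, 0.61 ± 0.53 (SE), within the spread of its arrays. Its probe lies at chr9:79446895-79446954. Its values were -1.33, -2.14, -1.70 and -0.30 in wild type 1 to 4 and -1.99, -0.80, 0.22 and -0.46 in mutant 1 to 4, and the genotypes overlapped.

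**Figure D1:**
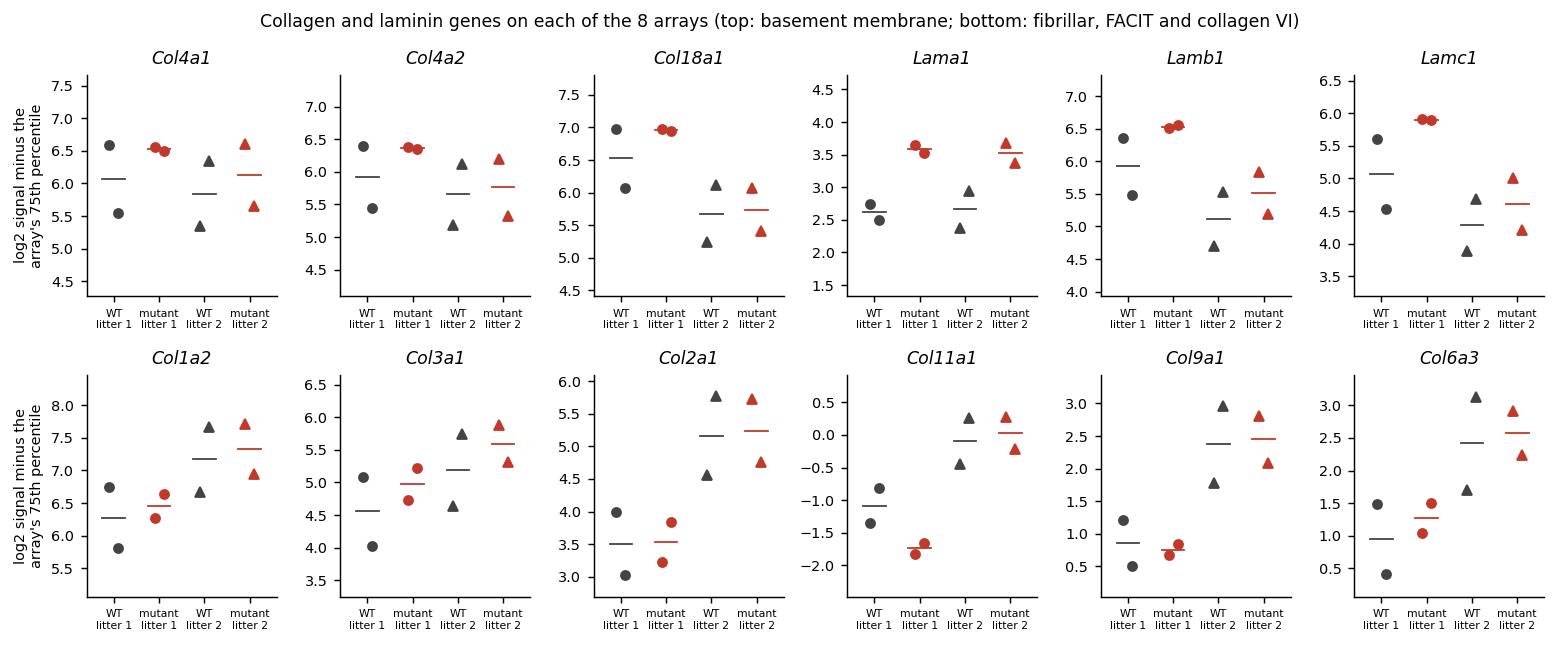
Log2 signal minus the 75th percentile of the array (vertical axes, each spanning the same number of units) for 12 genes, with 1 point per embryo (black, wild type; red, mutant; circles, litter 1; triangles, litter 2) and a bar at the mean of each pair. Lama1 separates by genotype, from 2.38 to 2.95 in wild type and 3.37 to 3.68 in mutants, while Col2a1, Col9a1, Col11a1 and Col6a3 separate by litter.

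Markers of other cells were followed beside these values. The platelet list was lower in mutants for 6 of 6 genes, 3 of them past the threshold, and its summed level (log2 of the sum of linear values) ran from 2.40 to 3.86 in mutants and 5.26 to 6.41 in wild type. The endothelial list (7 of 10 higher, 0 called) had summed levels of 7.81 to 9.59 in wild type and 8.09 to 9.54 in mutants. The mesenchymal list (7 of 11 higher, 0 called) had 3.95 to 5.70 and 4.53 to 5.38. Over all features 52.4% were higher in mutants and 0.0447% were called. Without the 3 arrays that stand apart, 4 of 10 endothelial, 4 of 11 mesenchymal and 0 of 6 platelet genes were higher, where 40.2% of all features were. Litters are unbalanced over genotype in that subset. The part of these cells in the matrix genes' values was not tested.

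The second comparison set the litters against each other, with genotype in the model. Arrays of a litter shared parents and a slide, so they are not independent replicates of a litter. The p-values and SDs by litter describe these arrays and not litters in general. Most cartilage and fibrillar collagens had higher means in litter 2, while several endothelial basement membrane genes had lower means there. Past the threshold were 6 of 53 members, all higher in litter 2, where 4.9% of all features were called, 4.01% as higher and 0.895% as lower (limma, adjusted p under 0.05). They were Col2a1, Col11a1, Col11a2 and Col24a1 of the fibrillar group and Col9a1 and Col9a3 of the FACIT group, collagens that decorate fibrils. At an unadjusted p under 0.05, 23 members were higher and 3 lower, where the shares of all features were 18.0% and 7.86%. Without overlap between litters 16 members were higher and 1, Col15a1, lower, where 10.5% and 3.57% of all features were (14% in all). With arrays scaled to their medians instead, 451 features were called higher and 559 lower, against 1612 and 360 here. The median of all features was itself 0.32 higher in litter 2 on this scale, and 38 of 53 members lay above it. The litter 2 mean was above that of litter 1 in 64% of all features.

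Col2a1, the main collagen of cartilage (probe at chr15:97806071-97806130, minus strand), had values of 3.99, 3.03, 4.56 and 5.76 in wild type 1 to 4 and 3.23, 3.84, 5.72 and 4.76 in mutant 1 to 4. Each litter 2 array lay above each litter 1 array, in both genotypes. It was at 3.52 ± 0.46 (SD, n = 4) in litter 1 and 5.20 ± 0.63 (SD, n = 4) in litter 2, 3.20-fold higher in litter 2 (log2 difference 1.68 ± 0.40 (SE), adjusted p = 0.0462, limma). Col11a1 and Col11a2 encode chains of collagen XI, the core of cartilage fibrils. Col11a1 had values of -1.35, -0.81, -0.45 and 0.26 in wild type 1 to 4 and -1.82, -1.65, 0.27 and -0.21 in mutant 1 to 4. The litters did not overlap, and the difference was 1.38 ± 0.32 (SE) (limma, adjusted p = 0.0442). Col11a2 had values of -1.07, 0.07, 0.78 and 0.62 in wild type 1 to 4 and -1.81, -1.48, -0.01 and 0.53 in mutant 1 to 4. Wild type 2 of litter 1 was slightly above mutant 3 of litter 2, so the litters overlapped, and the difference was 1.55 ± 0.34 (SE) (limma, adjusted p = 0.0388).

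Collagen IX sits on the surface of cartilage fibrils. Its chain genes Col9a1, Col9a2 and Col9a3 had litter differences of 1.60 ± 0.35 (SE), 1.63 ± 0.42 (SE) and 1.60 ± 0.38 (SE). Col9a1 (probe at chr1:24259125-24259184) had values of 1.21, 0.51, 1.78 and 2.97 in wild type 1 to 4 and 0.67, 0.85, 2.81 and 2.09 in mutant 1 to 4. Col9a2 (probe at chr4:120727698-120727757) had values of 1.69, 1.00, 2.22 and 3.94 in wild type 1 to 4 and 1.53, 1.77, 3.63 and 2.73 in mutant 1 to 4. In both genes no array of litter 1 reached the lowest of litter 2. Col9a3 (probe at chr2:180356123-180356182) was dimmer, with values of -3.83, -3.85, -3.20 and -1.75 in wild type 1 to 4 and -4.13, -4.30, -1.91 and -2.85 in mutant 1 to 4, and its litters did not overlap either. The adjusted p-values (limma) were 0.0384, 0.0582 and 0.0469 for Col9a1, Col9a2 and Col9a3, so that Col9a2 missed the threshold with a difference as large as its partners'. Col2a1 minus Col9a1 had an SD of 0.16 over the 8 arrays, against 1.03 and 0.95 for the genes alone.

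Col24a1, a minor fibrillar collagen known from developing bone and eye (probe at chr3:145214473-145214532), had values of -2.64, -3.33, -1.12 and -1.81 in wild type 1 to 4 and -3.19, -2.89, -1.53 and -1.57 in mutant 1 to 4. The litters were apart in both genotypes, by 1.52 in wild type and 1.49 in mutants, with an overall difference of 1.5 ± 0.29 (SE) (limma, adjusted p = 0.0271). Of the 11 fibrillar genes 10 were higher in litter 2, with a median difference of 0.92. The collagens I and III had smaller differences, 0.56 ± 0.38 (SE) for Col1a1, 0.88 ± 0.36 (SE) for Col1a2 and 0.62 ± 0.37 (SE) for Col3a1 (limma, adjusted p = 0.345, 0.164 and 0.294). Col5a1, which sets fibril width, differed by 0.61, and its partner Col5a2, a neighbour of Col3a1 on chromosome 1, was the exception at -0.03. Col5a3 and Col27a1 differed by 0.92 and 0.96.

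The remaining groups of collagens outside the basement membrane also had higher means in litter 2 in each measured gene, without a call beyond those named, although Col10a1 and Col17a1 under quantile normalization and Col10a1 and Col23a1 under median scaling had not. Among FACIT genes 9 of 9 were higher (median 1.09). Col16a1 had a difference of 1.19 ± 0.37 (SE) (limma, adjusted p = 0.0925), and Col12a1, Col14a1, Col19a1, Col20a1 and Col22a1 ran from 0.65 to 1.09. Col16a1 had values of 2.68, 1.71, 2.70 and 3.75 in wild type 1 to 4 and 1.76, 2.26, 3.72 and 3.02 in mutant 1 to 4, and the lowest array of litter 2 was just above the highest of litter 1. Collagen VI forms beaded microfibrils around mesenchymal cells, and its 5 measured chains were all higher (median 1.15). Col6a1 and Col6a3, its brightest probes, differed by 0.93 ± 0.42 (SE) and 1.39 ± 0.40 (SE), and Col6a2 by 1.5 ± 0.41 (SE) (limma, adjusted p = 0.194, 0.0807 and 0.0668). Col6a1 had values of 2.28, 1.29, 2.21 and 3.61 in wild type 1 to 4 and 1.91, 2.53, 3.40 and 2.52 in mutant 1 to 4, with overlapping litters. Col6a3 had values of 1.48, 0.41, 1.71 and 3.13 in wild type 1 to 4 and 1.05, 1.5, 2.92 and 2.24 in mutant 1 to 4, without overlap. Col6a2 minus Col6a3 had an SD of 0.11 over the arrays, against 0.97 and 0.92 alone. Col6a4 and Col6a6 differed by 1.15 and 0.65.

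Col7a1, the anchoring fibril of skin, had a difference of 1.17 ± 0.29 (SE) that just missed the threshold (limma, adjusted p = 0.0508), and Col28a1 of 1.15 ± 0.43 (SE) (limma, adjusted p = 0.143). Col7a1 had values of -0.13, -0.64, 0.51 and 1.01 in wild type 1 to 4 and -0.49, -0.35, 1.08 and 0.47 in mutant 1 to 4, each of litter 2 above each of litter 1. The network collagens Col8a1 and Col8a2, the latter known from the cornea, differed by 0.98 and 0.96, and Col10a1 by 0.47. Col8a2 had values of -0.22, -0.47, 0.29 and 1.02 in wild type 1 to 4 and -0.32, 0.12, 1.03 and 0.59 in mutant 1 to 4, again without overlap between litters. The transmembrane collagens Col13a1, Col17a1, Col23a1 and Col25a1 differed by 0.71, 0.66, 0.03 and 0.93. Col25a1, known from neurons, had values of -0.56, -0.45, -0.01 and 0.76 in wild type 1 to 4 and -0.36, -0.10, 0.91 and 0.58 in mutant 1 to 4, and its litters did not overlap.

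Basement membrane genes were split. Of 19 (6 collagen IV chains, 2 multiplexins and 11 laminins) 8 were higher and 11 lower in litter 2, with a median of -0.01, or -0.33 relative to all features. Under quantile normalization 12 of them were higher and 7 lower, and under median scaling 3 and 16. No gene of the 19 passed the threshold. Lamc1 had values of 5.61, 4.53, 3.88 and 4.68 in wild type 1 to 4 and 5.91, 5.90, 5.0 and 4.21 in mutant 1 to 4, and differed by -1.04 ± 0.36 (SE) (limma, adjusted p = 0.121). Its litter 1 arrays were high except for wild type 2, which overlapped litter 2. Lamb1 had values of 6.36, 5.49, 4.70 and 5.52 in wild type 1 to 4 and 6.5, 6.56, 5.84 and 5.19 in mutant 1 to 4, and differed by -0.92 ± 0.33 (SE) (limma, adjusted p = 0.133). Col18a1 had values of 6.98, 6.08, 5.24 and 6.12 in wild type 1 to 4 and 6.97, 6.95, 6.07 and 5.41 in mutant 1 to 4, and differed by -1.04 ± 0.34 (SE) (limma, adjusted p = 0.108). In these 2 genes, too, wild type 2 was the lowest of litter 1 and the overlap rested on it. Their probes lie at chr1:155066156-155066215, chr12:32014411-32014470 and chr10:76514926-76514985.

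Col15a1 was the gene whose litter 2 arrays all lay under those of litter 1, at 0.77 ± 0.34 (SD, n = 4) in litter 1 and 0.17 ± 0.20 (SD, n = 4) in litter 2, a difference of -0.60 ± 0.28 (SE) (limma, adjusted p = 0.209). Its values were 0.55, 0.63, 0.23 and 0.04 in wild type 1 to 4 and 0.62, 1.28, 0.43 and -0.01 in mutant 1 to 4, and the closest arrays were mutant 3 and wild type 1. Col4a1, Col4a2 and Lama4 differed by -0.31 ± 0.37 (SE), -0.43 ± 0.36 (SE) and -0.36 ± 0.37 (SE), and Lama1 by -0.01 ± 0.27 (SE) (limma, adjusted p = 0.575, 0.43, 0.526 and 0.985). The signs of these 4 genes were positive under quantile normalization (0.26, 0.18, 0.24 and 0.48), while Lamc1, Lamb1, Col18a1 and Col15a1 stayed negative there. Lama2, the muscle and nerve laminin chain, had a higher mean in litter 2, at -0.23 ± 0.33 (SD, n = 4) in litter 1 and 0.93 ± 0.45 (SD, n = 4) in litter 2, a difference of 1.15 ± 0.32 (SE) (limma, adjusted p = 0.072). The remaining laminins described here (Lama3, Lama5, Lamb2, Lamb3, Lamc3) ran from -0.13 to 0.41, and Col4a3 to Col4a6 from 0.09 to 0.68.

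**Figure D2:**
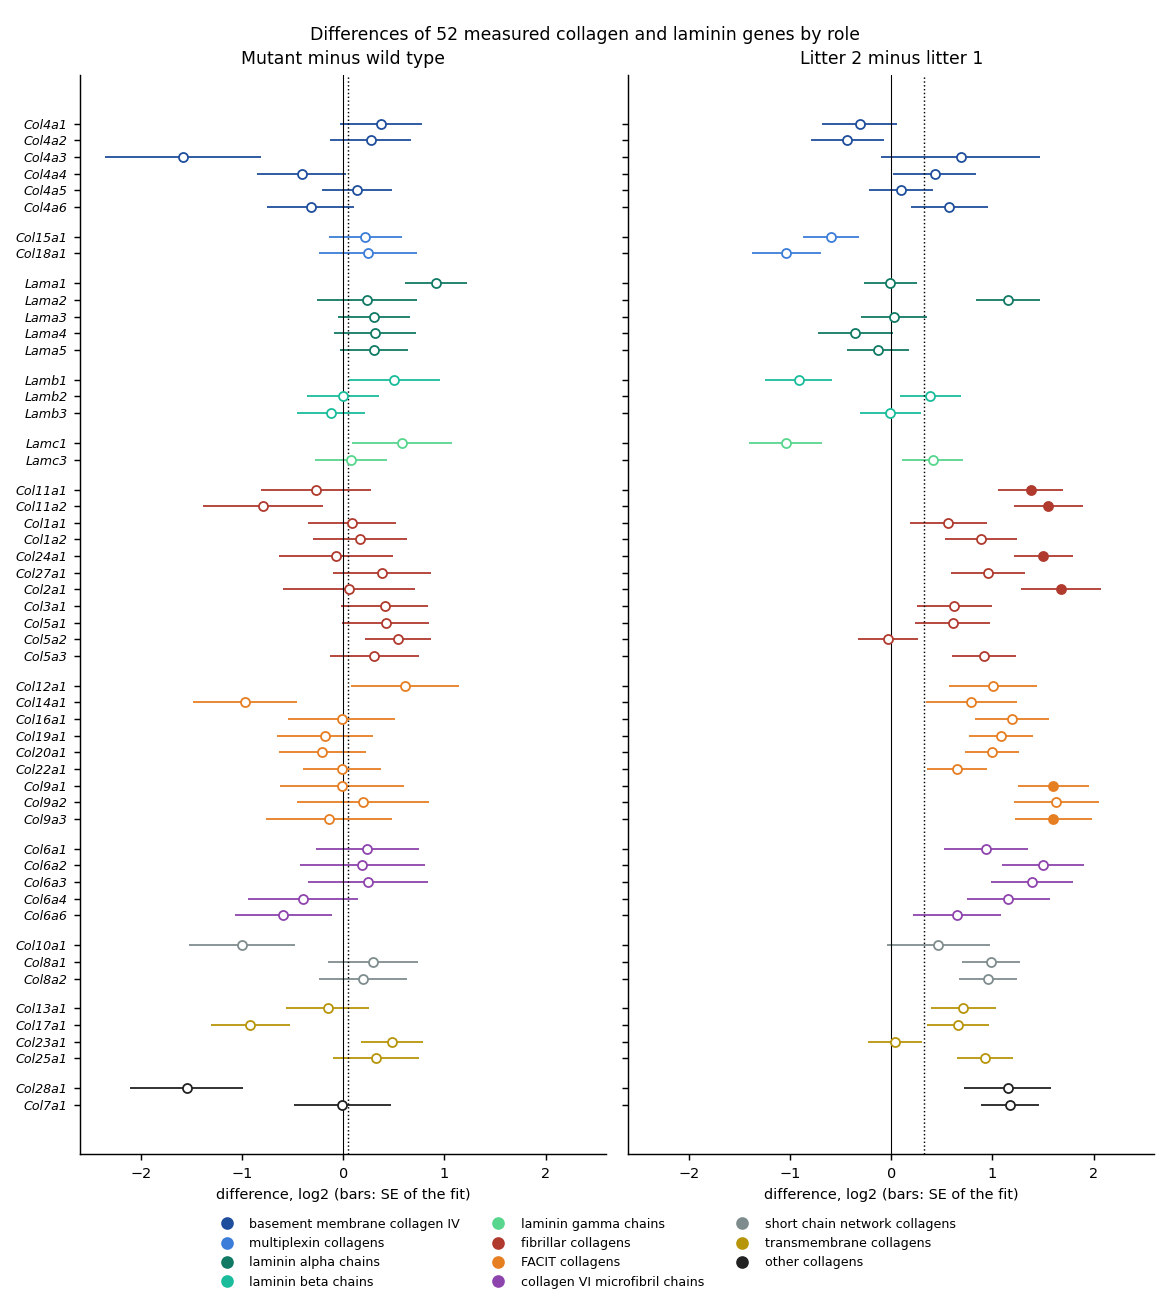
Difference of each of 52 measured genes on the log2 scale (horizontal axes), mutant minus wild type on the left and litter 2 minus litter 1 on the right, with bars of 1 SE of the fit, filled points for an adjusted p under 0.05 and a dotted line at the median of all features. No point is filled on the left, and the 6 filled on the right are Col2a1, Col11a1, Col11a2, Col24a1, Col9a1 and Col9a3.

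How many members were called in the litter comparison depended on the scaling and on single arrays. With each array scaled to its median limma called 0 members (12 at an unadjusted p under 0.05, against 26 in the comparison above), and the log2 values of the authors' deposited table gave 0 higher and 2 lower, Col18a1 and Lamc1. Quantile normalization gave 10 higher, among them Col2a1 and Col9a1 of the 6, and leaving out the 3 arrays that stand apart gave 17 higher and 3 lower, among them 5 of the 6. Leaving out wild type 1, wild type 4 or any 1 of the 4 mutants gave 0 by limma, with 20 to 25 members at an unadjusted p under 0.05. The direction of the 6 called genes was the same under each of the 18 alternatives run, with Col2a1 between 1.21 and 2.23. Where the litters did not overlap, as in all of these genes but Col11a2, leaving arrays out could not turn it.

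**Figure D3:**
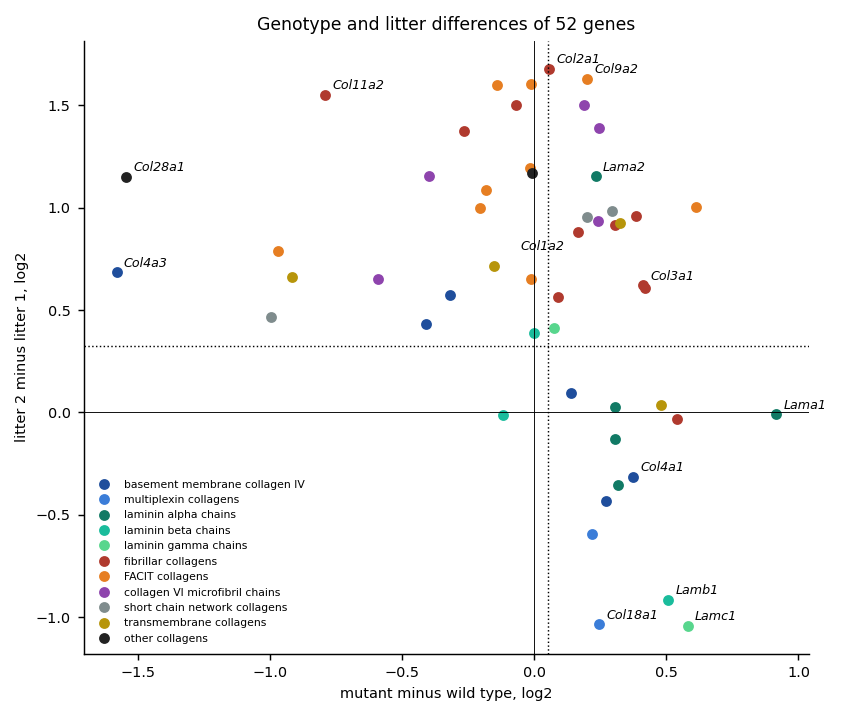
Mutant minus wild type (horizontal axis) against litter 2 minus litter 1 (vertical axis), both on the log2 scale, with 1 point for each of 52 genes coloured by role and dotted lines at the medians of all features (0.05 and 0.32). Col4a1, Lama1, Lamb1, Lamc1 and Col18a1 lie at the lower right, and the fibrillar and FACIT genes lie above the horizontal dotted line except for Col5a2.

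A difference between 2 genes on the same array does not depend on the scaling of the arrays by 1 factor, and it was taken for Col4a1, Col1a2 and Col3a1 after their values had been seen. Col4a1 minus Col1a2 was -0.15 and -0.27 in wild type 1 and 2, 0.29 and -0.14 in mutant 1 and 2, -1.33 and -1.32 in wild type 3 and 4, and -1.12 and -1.28 in mutant 3 and 4. The litters were far apart and the embryos within a litter close, whatever their genotype. The litter difference was -1.20, from a mean of -0.07 in litter 1 to -1.26 in litter 2, and the genotype difference was 0.21.

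The same held for Col4a1 minus Col3a1, with 1.27 to 1.83 in litter 1 and 0.35 to 0.73 in litter 2, a litter difference of -0.94 and a genotype difference of -0.04. The exact two-sided permutation p was 0.0286 for the litter difference of each pair, the smallest that 70 arrangements allow, and 0.0857 after adjustment over the 6 comparisons made (3 pairs, genotype and litter). Because the pairs were chosen after these values were seen, this p describes the separation and is no independent test of it. Both pairs share Col4a1, so the second is no separate support. All embryos of a litter shared a slide, so they are not independent replicates of a litter. The genotype differences had exact permutation p = 0.514 and 0.943. Between the fibrillar genes, Col1a2 minus Col3a1 differed by 0.26 between litters and by -0.25 between genotypes (exact two-sided permutation p = 0.0857 and 0.114). Over the alternatives run, single arrays left out included, the litter difference of Col4a1 minus Col1a2 stayed between -1.27 and -1.10, and that of Col4a1 minus Col3a1 between -1.03 and -0.81.

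As a summary over the classes, the median over the genes of a class was the planned measure and the mean an alternative to it. The mean of the 19 basement membrane genes minus the mean of the 11 fibrillar genes was 0.43 to 0.82 on the litter 1 arrays. On the litter 2 arrays it was -0.62 to -0.20, a difference of -1.02. Between genotypes it differed by 0.01. The mean of the fibrillar genes was 1.05 ± 0.25 (SD, n = 4) in litter 1 and 2.02 ± 0.37 (SD, n = 4) in litter 2, and that of the basement membrane genes 1.63 ± 0.29 (SD, n = 4) and 1.57 ± 0.20 (SD, n = 4). By the planned medians, the same contrast was 0.09 ± 0.44 (SD, n = 4) in litter 1 and 0.12 ± 0.38 (SD, n = 4) in litter 2. It showed no separation of litters, so the separation seen in the means depends on the measure. The litter difference of the fibrillar median was 0.13. No test was made over these class summaries.

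**Figure D4:**
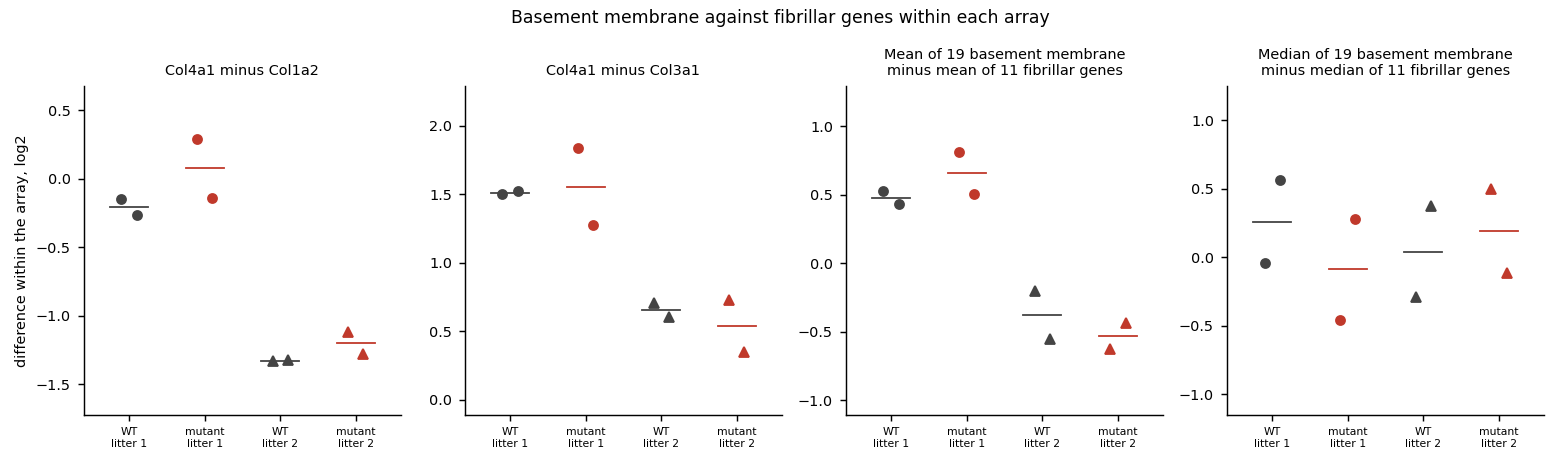
Differences within each array on the log2 scale (vertical axes, each spanning the same number of units), with points per embryo as above (black, wild type; red, mutant; circles, litter 1; triangles, litter 2) and bars at the mean of each pair. Col4a1 minus Col1a2, Col4a1 minus Col3a1 and the contrast of class means are lower on all 4 arrays of litter 2 than on those of litter 1, while the contrast of class medians overlaps.

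Cell markers moved with litter beside these genes. Their counts stand against 64% of all features with a higher mean in litter 2. Of all features 4.01% were called as higher and 0.895% as lower. Endothelial markers were lower in litter 2 in 10 of 10 genes, 4 of them past the threshold (Cdh5, Kdr, Erg and Esam, median of the list -1.08), and the list's summed level was 8.84 to 9.59 on the litter 1 arrays and 7.81 to 8.56 on those of litter 2. Pecam1 itself, the gene of the CD31 protein, was at 3.39 and 2.77 on average (limma, adjusted p = 0.274). Cartilage markers other than collagens were higher in 11 of 12 genes, 5 of them past the threshold (Acan, Matn1, Cnmd, Snorc and Epyc, median 1.35). The summed level of that list, which is dominated by Sox5, was 6.14 to 6.66 in litter 1 and 5.95 to 6.80 in litter 2. Mesenchymal markers were higher in 10 of 11 genes with 0 called, and their summed level was 3.95 to 5.23 and 4.71 to 5.70. Macrophage markers (7 of 7 higher, 5 called) had summed levels of 2.98 to 3.63 in litter 1 and 4.38 to 4.80 in litter 2. Erythroid markers (6 of 6 higher, 2 called) had 7.53 to 8.73 and 9.17 to 10.12. Schwann cell and neural crest markers (6 of 6 higher, 0 called) had 1.25 to 1.62 and 2.21 to 2.69, and epithelial markers (10 of 10 higher, 1 called) 2.95 to 4.02 and 3.81 to 4.67. Skeletal muscle markers were higher in 7 of 7 measured genes, bone markers in 5 of 5, pericyte and smooth muscle markers in 8 of 9 and neuronal markers in 2 of 6, with 0 called in each of these lists. Endothelial and cartilage markers were thus both measured above background in this preparation, and their part in the collagen and laminin values was not tested.

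Genes that fold, process, bind and sense collagens and laminins were examined as lists. For genotype, limma called 0 of the 89 measured genes of the 6 lists (4 at an unadjusted p under 0.05), where 0.0447% of all features were called. Among the basement membrane partners 13 of 16 were higher in mutants (median 0.30) and 9 of 16 without the 3 arrays that stand apart (median 0.05), where 52.4% and 40.2% of all features were higher. This alternative was added after seeing the data, and litters are unbalanced over genotype in it. The brightest probes of the list were those of Sparc, at 8.72 in wild type and 9.01 in mutants, and the perlecan gene Hspg2, at 5.79 and 6.47. Among the enzymes and chaperones of collagen folding 16 of 19 were higher (median 0.34), and 13 of 19 without the 3 arrays (median 0.08), with Serpinh1, the collagen chaperone HSP47, at 5.38 and 5.86, and Fkbp10 at 5.58 and 5.92. For processing and crosslinking 8 of 13 were higher, with the procollagen proteinase Bmp1 at 4.40 and 5.10, for fibril associated proteins 8 of 13, for receptors 8 of 16 and for metalloproteinases and their inhibitors 8 of 12. Without the 3 arrays these counts were 4, 5, 5 and 6. The inhibitors Timp2 and Timp3 were at 3.69 and 4.69 in wild type and 4.41 and 5.23 in mutants. Of the 89 genes 3 did not overlap between genotypes, where 1.04% of all features did not, and they are named here after their values were seen. Gp6, the collagen receptor of platelets, lay between 0.36 and 1.2 in wild type and between -2.0 and -0.56 in mutants. Its difference was -2.10 ± 0.39 (SE) (limma, adjusted p = 0.232, and 0.0155 with normexp background correction), and -2.05 without the 3 arrays, beside the lower platelet markers described above. Fbln2, the basement membrane protein fibulin 2, lay between 2.10 and 3.24 in wild type and between 3.71 and 4.70 in mutants, a difference of 1.53 ± 0.39 (SE) (limma, adjusted p = 0.717), and 1.28 without the 3 arrays. Adamts14, a procollagen proteinase, was at 0.25 and 1.14 on average, a difference of 0.89 ± 0.34 (SE) (limma, adjusted p = 0.717).

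Between litters 4 of these 89 genes (4.49%) passed the threshold, a share near the 4.9% of all features that were called. Pcolce2, an enhancer of procollagen processing, was higher in litter 2 by 1.11 ± 0.25 (SE), the crosslinking enzyme Loxl1 by 1.25 ± 0.29 (SE) and the fibril proteoglycan fibromodulin, Fmod, by 1.25 ± 0.27 (SE), with adjusted p of 0.0400, 0.0434 and 0.0362 (limma). Itga6, the alpha 6 integrin that binds laminins on endothelium and epithelium, was lower by 1.38 (limma, adjusted p = 0.0411), at 6.71 in litter 1 and 5.33 in litter 2. Hspg2 (6.59 and 5.66) and Serpinh1 (6.15 and 5.10) had lower means in litter 2 without passing (limma, adjusted p = 0.133 and 0.0749). The decorin gene Dcn was at 3.27 and 3.99, Fn1, of fibronectin, at 6.47 and 6.03, Itgb1 at 3.78 and 3.44, and Pcolce at 3.82 and 4.48.

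The third comparison asked whether the genotype difference itself changed between litters. By the interaction term 0 of 53 members and 0% of 40226 features were called (limma, adjusted p under 0.05), and at an unadjusted p under 0.05 0 members and 490 features (1.22%) were. For 40 of 53 members the mutant minus wild type difference had the same sign in both litters, and for 45 of 53 the litter difference had the same sign in both genotypes. With litter as a block the genotype comparison called 0 members and 0 features, with 4 members at an unadjusted p under 0.05.

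Genes with several measured probes gave a check on the choice of the brightest. Of 14 such genes the genotype difference changed sign between probes in 9, and the litter difference in 1, Col4a6. Of the genes called between litters, Col9a1 had a second measured probe, and its probes differed by 0.61 and 1.60 between litters.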

How the data were processed

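The deposited scanner files give intensity per spot on a linear scale, which per the file headers was read from 1 channel by Feature Extraction 10.7.3.1 from Agilent, with mm9 coordinates. No normalization between arrays had been applied. The authors' deposited table gives log2 values per sample, which equal each array's log2 signal minus its median, and a log2 fold change with p-values and scores. Per the submitters' processing notes limma was used, in a version not given there. The table's log2 values served as an alternative.

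Here log2 of the processed intensity minus the array's 75th percentile was taken, without control and outlier spots. Probes well above background on at least 4 arrays with 3 values per group were kept, and the brightest stood for each gene, giving 40226 features. The fits were made in R 4.3.3 with limma 3.58.1, two-sided, with a Benjamini-Hochberg adjusted p under 0.05 over all features as the threshold: genotype alone, litter with genotype, and their interaction. Col4a1, Col1a2 and Col3a1 were also tested by exact permutation. The fit was tested on simulated data. The same replicate number does not pair samples: the deviations of same-numbered samples correlated at 0.62, -0.03, -0.10 and -0.16.

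Named are Col4a1, Col1a2 and Col3a1, the 2 brightest members of each role, members past the threshold and the 3 largest differences in each direction. In the other lists, genes past the threshold or otherwise the 2 brightest are named. The members, lists and rules were chosen with earlier results of these data known. Col26a1 carries an older name in the files and was not matched. Protein sequences were not used here, and 1 member is not reported here by itself. Alternatives were background correction, quantile and median scaling, filters, probe means, outlier spots, blocks and arrays left out.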

Additional observations from a re-analysis of the deposited data

Results flagged for a closer look

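Among the 66 sets of 4 arrays examined (30 named genes, the basement membrane and fibrillar levels and their contrast, each genotype apart), 5 had an array far from the other 3, and chance flags about 1 in 20 sets. Mutant 4 stood below the other mutants in Col4a1 (5.66), Col4a2 (5.32) and Lama4 (4.08). It is one of the 3 arrays that the first principal component sets apart. Wild type 1 was lower than the other wild type arrays in Col10a1, at -3.76. Mutant 3 was higher than the other mutants in Lamb2, at 2.97.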

How the results depend on the processing

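Under the alternatives run, 0 members were called for genotype or for the interaction. The genotype comparison called 18 features, but 39 with normexp background correction, 1 with quantile normalization, 52 with the authors' log2 values, 8 without a filter, and 0 with the litter block, with the replicate block (1385 at an unadjusted p under 0.05 by limma) or without the 3 arrays that stand apart. Single arrays left out gave 0 to 24. With the replicate block 0 members were called too. The litter comparison called 1972 features, but 1170 with normexp, 778 with quantile normalization, 1010 with median scaling and 5780 without the 3 arrays, and 4 to 3965 with single arrays left out (4 without mutant 2, 25 without mutant 1). Of members it called 6, but 10 with quantile normalization, 0 with median scaling, 2 with the authors' log2 values, 3 without a filter, 10 with the mean of probes, 20 without the 3 arrays and 0 to 8 with single arrays left out.

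Quantile normalization reversed the genotype difference of Col4a1 (-0.043) and Col1a2 (-0.26), and leaving out the 3 arrays that of Col1a2 (-0.33) and Col3a1 (-0.14). The arrays left after leaving out these 3 are unbalanced for litter, with no litter term in that fit. With single arrays left out, Col4a1 ran from 0.17 to 0.60, Col1a2 from -0.14 to 0.48 and Col3a1 from 0.13 to 0.70. The cause was not tested. The median level of basement membrane genes differed by 0.25 between genotypes and 0.15 between litters, with collagen IV alone by -0.23 between genotypes, and between litters by -0.31 with median scaling or the authors' values and -0.28 relative to all features. That of fibrillar genes differed by 0.35 between genotypes (0.65 relative to all features), and by 0.13 between litters (-0.34 with median scaling or the authors' values, 0.97 as a mean, 0.61 without the cartilage chains Col2a1, Col11a1, Col11a2 and Col27a1, -0.31 relative to all features). Their contrast differed by -0.10 between genotypes (-0.58 with collagen IV alone) and 0.03 between litters (0.51 without the 3 arrays, -1.02 as means, -0.45 without the cartilage chains). With single arrays left out the levels ran from 0.11 to 0.42 and -0.01 to 0.32 for basement membrane, 0.18 to 0.44 and -0.08 to 0.26 for fibrillar, and -0.25 to 0.07 and -0.15 to 0.19 for the contrast, genotype first. The level relative to all features and the differences between genes within an array were chosen after seeing the data.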
